A study of Mus musculus with 4 samples.

Results

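The p53 pathway genes described here were 10 genes taken by name from the deposited expression table of mouse embryonic fibroblasts (MEFs): Trp53, Mdm2, Cdkn1a, Btg2, Ccng1, Trp53inp1, Bbc3, Bax, Phlda3 and Zmat3. All 10 were found among the 21839 gene names of the table, and the rule that names them uses no threshold on their values. The study cultured wild-type MEFs, prepared from C57BL/6 embryos, on the upper side of a permeable insert. For the cocultures with mesenchymal stem cells (MSCs) from bone marrow, the labels describe the other cells as placed below the membrane. QNZ is an inhibitor of NF-κB signalling, and the labels do not state the dose. RNA of the fibroblasts was sequenced after 48 h in 4 conditions: fibroblasts cocultured with MSCs and treated with QNZ, fibroblasts cocultured with MSCs, fibroblasts cultured alone with QNZ, and fibroblasts cultured alone. Each condition had 1 library, so no spread between cultures of one condition could be measured, and no test between conditions was made. The intervals below are 95% intervals for counting error only.

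p53, the protein made from Trp53, is a transcription factor that responds to DNA damage and other stress. It binds a response element made of paired half-sites near its target genes and raises their transcription. Its targets arrest the cell cycle, start apoptosis or switch p53 itself off again, and Mdm2, a target that marks p53 for degradation, closes a negative feedback loop. p53 is controlled mainly through the stability and modification of the protein, which an RNA measurement does not show. In embryonic fibroblasts the pathway is known for limiting growth in culture.

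The promoters of the members are shown first because the p53 response element is the sequence that p53 binds near its target genes. Windows reaching from 250 bases before to 50 bases after each annotated start were taken from RefSeq on mouse build GRCm38.p6 (mm10), and 8 of the 10 members had one. Each was searched for the p53 consensus as 2 half-sites of 10 bases separated by a spacer of 0 to 13 bases. The core C and G of each half-site were required, so mismatches could fall only at the other positions. The consensus is its own reverse complement, so a match on one strand is a match on the other. With no spacer and at most 1 mismatch, 2 of the 8 members held a match, against 22 of 27025 genes with a window (0.081%). With any spacer and at most 3 mismatches, 5 of the 8 members held one, against 17.4% of all genes. The members were listed as p53 pathway genes beforehand, so these shares describe them and test nothing. One match of each of these 5 members is given below, with no spacer where such a match had at most 3 mismatches, 5′ to 3′ on the strand of the gene, with 10 flanking bases on each side, and capitals mark the half-sites.
Cdkn1a: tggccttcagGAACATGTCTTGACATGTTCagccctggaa
Ccng1: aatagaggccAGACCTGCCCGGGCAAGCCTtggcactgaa
Bax: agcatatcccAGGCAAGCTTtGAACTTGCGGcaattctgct
Bbc3: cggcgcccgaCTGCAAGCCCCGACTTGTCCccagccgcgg
Trp53: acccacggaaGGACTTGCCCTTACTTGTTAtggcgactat

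The Cdkn1a match (chr17:29090918-29090957, plus strand) had 1 mismatch and ended 32 bases before the upstream of its annotated starts. Its first half-site also pairs, across a spacer of 12 bases, with another upstream half-site, and that pair had 0 mismatches, which 0.074% of genes reached. The Ccng1 match (chr11:40755452-40755491, minus strand) also had 1 mismatch, 176 bases before the start. The Bax match (chr7:45467069-45467109, minus strand) had 2 mismatches and a spacer of 1 base. The matches of Bbc3 (chr7:16309476-16309515, plus strand) and of Trp53 itself (chr11:69580274-69580313, plus strand) had 3 mismatches each, and that of Bbc3 lies inside the gene, before an internal start. None of the matches shown overlapped an annotated exon. The windows of Mdm2 and Btg2 held at best a match with 4 mismatches and that of Phlda3 one with 5, and these are not shown. The window at the downstream start of Cdkn1a also held at best a match with 5 mismatches. A match is a description of the letters and was not measured as a binding site, and many p53 response elements lie in introns or further upstream, outside these windows. Zmat3 and Trp53inp1 had no window.

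The 4 libraries held 13153696, 14872767, 15778488 and 15407979 reads, in the order of conditions given above. Mitochondrial genes took 1.49%, 0.738%, 0.580% and 0.291% of these reads in the same order. Fibroblast markers were high throughout, with a summed level of 1202 to 2122 FPKM (fragments per kilobase of gene length per 1000000 reads) and 9 of 11 markers at 1 FPKM or above in every library, although S100a4 had at most 1 read. Bone marrow stromal markers, which MSCs share with fibroblasts, summed to 382 and 514 FPKM in coculture with and without QNZ, against 303 and 593 FPKM in the matching fibroblasts cultured alone, with 6 or 7 of 11 markers at 1 FPKM or above. Ly6a alone had 446 FPKM in fibroblasts cultured alone. By CPM the same markers summed to 2081 and 2417 in coculture with and without QNZ, against 1390 and 1594 in the matching fibroblasts cultured alone. Of 7 measured, 3 were counted as higher in coculture without QNZ (Cxcl12, Kitl and Alcam, by 1.90, 1.77 and 1.18 on the log2 scale) and 0 as lower. After correction for gene length and GC content 1 was counted as higher (Cxcl12, 1.31). Of 9 measured fibroblast markers, 4 were higher and 0 lower in that comparison, and 0 and 1 after that correction. Over the 11335 genes at 1 FPKM or above in any library, 24.0% were higher and 11.0% lower, and 10.0% and 11.0% after that correction. Adipoq was at 3 and 10 reads in the cocultures with and without QNZ, against 0 reads in both cultures without MSCs. In bulk RNA, a change in the make-up of the cells and a change in RNA per cell cannot be told apart. Macrophage markers summed to 7.52 and 13.6 FPKM in coculture with and without QNZ, against 6.28 and 3.74 FPKM in the matching fibroblasts cultured alone. Of 2 measured, 2 were counted as higher in coculture without QNZ (Cd68 at 1.32 and Lyz2 at 1.37), also after correction for gene length and GC content. With QNZ in both cultures 0 were counted before that correction (Cd68 at 0.47 and Lyz2 at -0.34). Endothelial and epithelial markers summed to 3.64 to 7.39 FPKM, and the leukocyte gene Ptprc had at most 5 reads. The part of these markers and of the mitochondrial share in the members' values was not tested. Differences of coculture from culture alone ran with gene length across the whole table. In 10 groups of genes by length, the median difference of coculture from culture alone on the log2 scale lay between -0.74 in the shortest genes and 1.12 in the longest. The same medians lay between -0.07 and 0.33 for QNZ in fibroblasts cultured alone and between -0.03 and 0.07 for QNZ in coculture. The summed FPKM of all genes was 245329 and 244016 in the cocultures with and without QNZ, against 320869 and 349354 in the matching fibroblasts cultured alone.

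All 10 members were expressed at 1 FPKM or above in all 4 libraries, and together they took 2802, 2428, 2457 and 2322 of every 1000000 reads (CPM). Their order of level changed with coculture. Cdkn1a was the highest member in both cocultures, whereas Phlda3 was the highest in both libraries of fibroblasts cultured alone. The lowest was Zmat3 in both cocultures and Trp53inp1 in both libraries of fibroblasts cultured alone. The ratio of the highest to the lowest member was 9.75 and 11.7 in coculture with and without QNZ, against 42.3 and 133 in fibroblasts cultured alone with and without QNZ.

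**Figure D1:**
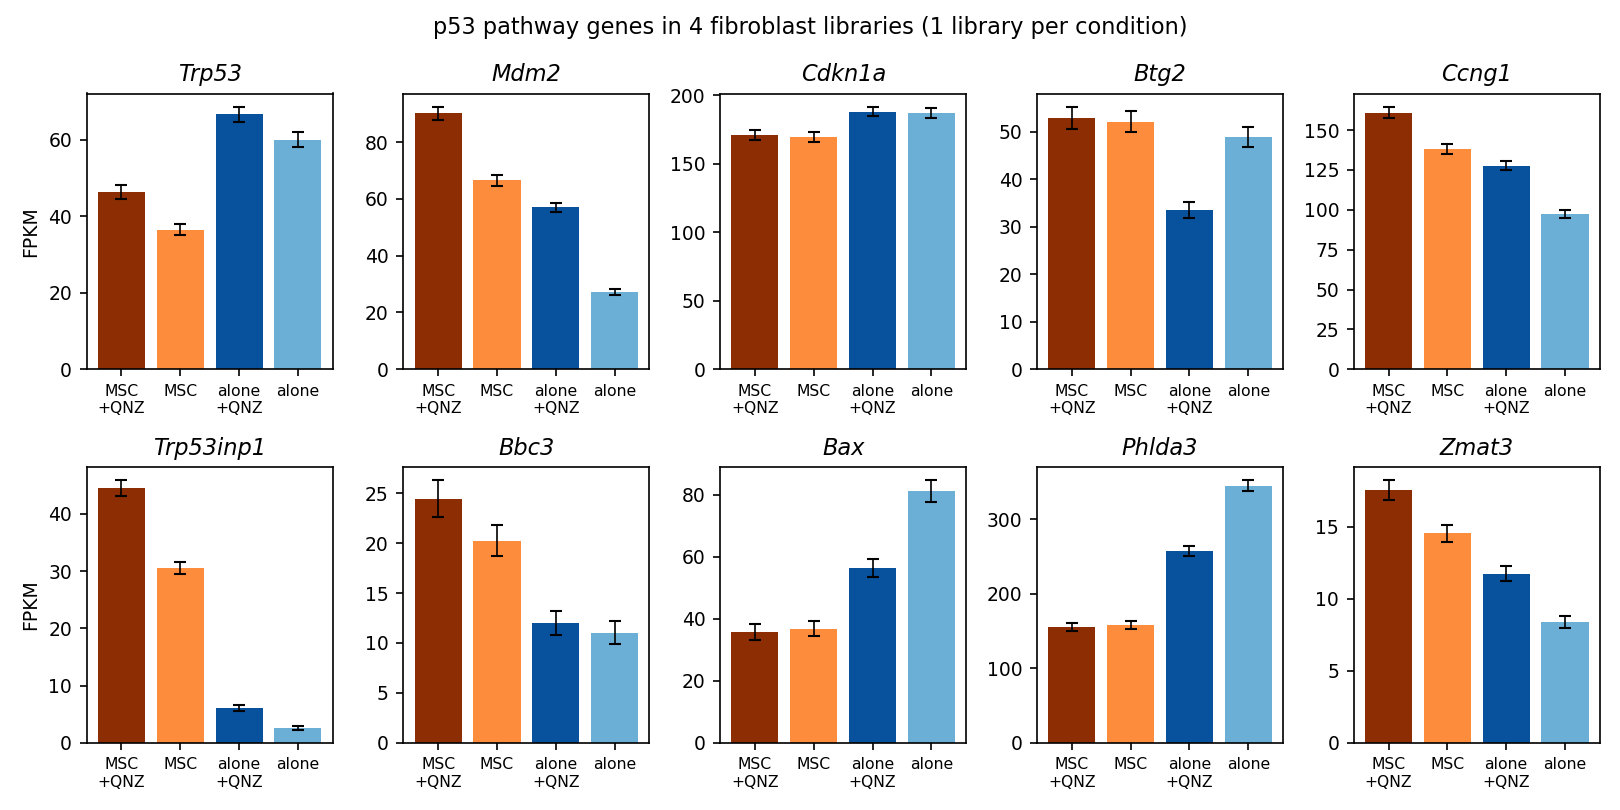
FPKM of each of the 10 p53 pathway genes (y axis, linear, from 0) in the 4 fibroblast libraries (x axis, 1 library per condition), with bars for the value and lines for its 95% Poisson interval. Trp53inp1 stood at 44.4 and 30.5 FPKM in the cocultures, against 6.07 and 2.59 FPKM in fibroblasts cultured alone, whereas Bax and Phlda3 had their highest bars in fibroblasts cultured alone.

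Trp53 and Mdm2, the transcription factor and its inhibitor, moved in opposite directions in coculture. Trp53 (11:69580359-69591873, plus strand, mm10) had 46.3 and 36.6 FPKM in fibroblasts cocultured with and without QNZ, against 66.7 and 60.0 FPKM in fibroblasts cultured alone with and without QNZ. Both cocultures lay below both cultures without MSCs. The CPM ratio of coculture to culture alone was 0.609 (0.577 to 0.642) without QNZ and 0.695 (0.661 to 0.731) with QNZ, which is a difference of -0.70 and -0.52 in log2(FPKM + 1). A difference of 1 in size on that scale was counted as higher or lower, and Trp53 reached it in neither comparison.

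Mdm2 (10:117688875-117710758, minus strand) encodes the ubiquitin ligase that marks p53 for degradation and is itself a target of p53. It had 90.2 and 66.5 FPKM in cocultured fibroblasts with and without QNZ, against 57.0 and 27.2 FPKM in fibroblasts cultured alone with and without QNZ. The fibroblasts cultured alone without QNZ were the lowest by a wide margin. Coculture against culture alone gave a CPM ratio of 2.45 (2.33 to 2.58) without QNZ and 1.58 (1.52 to 1.64) with it. The log2 differences were 1.26, which counted as higher, and 0.65, which did not. QNZ against no QNZ gave a ratio of 2.10 (1.99 to 2.21) in fibroblasts cultured alone, the 98th largest rise of 11335 genes at 1 FPKM or above in any library. Within a library, the FPKM of Mdm2 relative to Trp53 was 1.95 and 1.82 in the cocultures with and without QNZ, against 0.856 and 0.453 in the matching fibroblasts cultured alone. Mdm2 thus stood above Trp53 in both cocultures and below it in both other libraries.

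Among the cell cycle inhibitors, the best known target differed little by FPKM. Cdkn1a (17:29090976-29100727, plus strand) encodes p21, the inhibitor of cyclin-dependent kinases through which p53 arrests the cycle. Its reads numbered 7995 and 8970 in cocultured fibroblasts with and without QNZ, against 10547 and 10231 in fibroblasts cultured alone with and without QNZ, which is 171 and 169.7 FPKM against 188 and 187 FPKM. The CPM ratio of coculture to culture alone was 0.908 (0.883 to 0.935) without QNZ and 0.909 (0.883 to 0.936) with it. These differences depend on the scale. With median-of-ratios scaling in place of the library total they were -0.67 without QNZ and -0.40 with it on the log2 scale. By TPM, which sets the summed FPKM equal between libraries, they were 0.38 and 0.25. QNZ against no QNZ gave 1.01 (0.978 to 1.04) in coculture and 1.01 (0.980 to 1.03) in fibroblasts cultured alone. Cdkn1a relative to Trp53 was 3.69 and 4.64 in the cocultures with and without QNZ, against 2.82 and 3.11 in the matching fibroblasts cultured alone.

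Btg2 (1:134075170-134079120, minus strand) is an antiproliferative protein that recruits the enzymes that shorten mRNA tails. It had 52.9 and 52.2 FPKM in cocultured fibroblasts with and without QNZ, against 33.5 and 48.9 FPKM in fibroblasts cultured alone with and without QNZ. By FPKM, the fibroblasts cultured alone with QNZ were the only low library, and the other 3 lay within a narrow range. The CPM ratio of coculture to culture alone was accordingly 1.58 (1.47 to 1.69) with QNZ and 1.07 (1.003 to 1.13) without it. On the log2 scale, the difference without QNZ was -0.43 with median-of-ratios scaling and 0.61 by TPM, so the narrow range depends on the scale. Of the 10 members, Btg2 had the largest positive gap between the difference with QNZ and that without it, 0.55 on the log2 scale, above 96.0% of the 11335 genes.

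Ccng1 (11:40748552-40755311, minus strand) encodes cyclin G1, which brings a phosphatase to Mdm2. It had 161 and 138 FPKM in cocultured fibroblasts with and without QNZ, against 128 and 97.4 FPKM in fibroblasts cultured alone with and without QNZ. Its log2 differences of 0.50 without QNZ and 0.33 with QNZ were both -0.02 once the trend of all genes with length and base composition had been removed.

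The members linked to cell death differed in both directions. Trp53inp1 (4:11156431-11174379, plus strand) encodes a stress protein that promotes the phosphorylation of p53 and takes part in autophagy. Its reads numbered 3785 and 2936 in cocultured fibroblasts with and without QNZ, against 620 and 258 in fibroblasts cultured alone with and without QNZ. These are 44.4 and 30.5 FPKM against 6.07 and 2.59 FPKM. Both cocultures were far above both other libraries. The CPM ratio of coculture to culture alone was 11.8 (10.4 to 13.4) without QNZ and 7.32 (6.73 to 7.98) with QNZ. Of the 11335 genes, this was the 16th largest rise on the log2 scale without QNZ (3.13) and the 22nd with QNZ (2.68). With the length and GC trend removed the differences were still 2.03 and 1.83.

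QNZ against no QNZ gave a CPM ratio for Trp53inp1 of 1.46 (1.39 to 1.53) in coculture and 2.35 (2.03 to 2.72) in fibroblasts cultured alone. The second corresponds to a log2 difference of 0.98, just short of the size counted. Trp53inp1 relative to Trp53 was 0.959 and 0.834 in the cocultures with and without QNZ, against 0.0910 and 0.0431 in the matching fibroblasts cultured alone. The transcript was therefore close to that of Trp53 in coculture and a small fraction of it in culture alone.

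Bbc3 and Bax act in one step of apoptosis and differed in opposite directions. Bbc3 (7:16308393-16318205, plus strand) encodes PUMA, a BH3-only protein that frees Bax-type proteins from their inhibitors. It had 24.4 and 20.2 FPKM (682 and 639 reads) in cocultured fibroblasts with and without QNZ, against 12.0 and 11.0 FPKM (401 and 361 reads) in fibroblasts cultured alone with and without QNZ. Both cocultures were higher, with a CPM ratio of 1.83 (1.61 to 2.09) without QNZ and 2.04 (1.80 to 2.31) with QNZ. The log2 differences were 0.82 and 0.97, both short of 1.

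Bax (7:45461697-45466898, minus strand) encodes the protein that makes pores in the outer mitochondrial membrane. It had 35.7 and 36.7 FPKM in cocultured fibroblasts with and without QNZ, against 56.4 and 81.0 FPKM in fibroblasts cultured alone with and without QNZ. The cocultures differed by less than the counting error and lay below both other libraries. The CPM ratio of coculture to culture alone was 0.453 (0.418 to 0.491) without QNZ, a log2 difference of -1.12, and 0.633 (0.578 to 0.693) with QNZ, a log2 difference of -0.64. Bbc3 relative to Bax was 0.684 and 0.551 in the cocultures with and without QNZ, against 0.212 and 0.136 in the matching fibroblasts cultured alone. Bax shares 192 exonic bases with the gene model Gm45808 on the same strand, which was listed with 0 reads in every library.

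Phlda3 (1:135766119-135769136, plus strand) encodes a pleckstrin-homology protein that competes with Akt for membrane lipids and so restrains survival signalling. Its level was 155 and 158 FPKM in cocultured fibroblasts with and without QNZ, against 257 and 345 FPKM in fibroblasts cultured alone with and without QNZ. As with Bax, the cocultures differed by less than the counting error, and the fibroblasts cultured alone without QNZ were the highest. The CPM ratio of coculture to culture alone was 0.459 (0.441 to 0.477) without QNZ and 0.602 (0.577 to 0.628) with QNZ. The log2 differences were -1.12 and -0.73.

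Zmat3 (3:32334792-32366014, minus strand) encodes an RNA-binding zinc finger protein that regulates mRNA stability and splicing. It had 17.5 and 14.5 FPKM in cocultured fibroblasts with and without QNZ, against 11.7 and 8.37 FPKM in fibroblasts cultured alone with and without QNZ. Zmat3 is the longest member, at 11435 bases, and lies in the group of longest genes. Its log2 difference of 0.73 without QNZ was below the median of 1.12 of that group, and with the trend removed it was -0.24.

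Counted over the members, coculture against culture alone without QNZ had 2 of 10 higher (Trp53inp1 and Mdm2) and 2 of 10 lower (Bax and Phlda3). Over the 11335 genes, 24.0% were counted as higher and 11.0% as lower, so the members' count of rises was near that of all genes. The members' median difference was 0.30, and the median of all genes was 0.35. With QNZ in both cultures, 1 member was higher (Trp53inp1) and 0 were lower, against 14.0% higher and 8.70% lower over all genes. The members' median was then 0.44 and that of all genes 0.18. The same 6 members were on the positive side in both comparisons and the same 4 on the negative side (Trp53, Cdkn1a, Bax and Phlda3), except that Cdkn1a was positive by TPM (0.38 and 0.25). With median-of-ratios scaling, Btg2 (-0.43) and Ccng1 (-0.03) were negative without QNZ.

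QNZ against no QNZ gave smaller differences. In fibroblasts cultured alone, 1 of 10 members was higher (Mdm2) and 0 were lower, against 1.11% higher and 1.49% lower over all genes. The members' median was 0.13 and that of all genes 0.19. Trp53inp1 (0.98) followed Mdm2 (1.04), and the lowest values were those of Btg2 (-0.53), Bax (-0.52) and Phlda3 (-0.42). In coculture, 0 members were counted in either direction, against 0.309% higher and 0.759% lower over all genes. The members' median there was 0.24 and that of all genes 0.05, and the highest values were those of Trp53inp1 (0.53), Mdm2 (0.43) and Trp53 (0.33). The QNZ comparisons share all their libraries with the coculture comparisons, so the 4 sets of differences are not independent of each other.

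**Figure D2:**
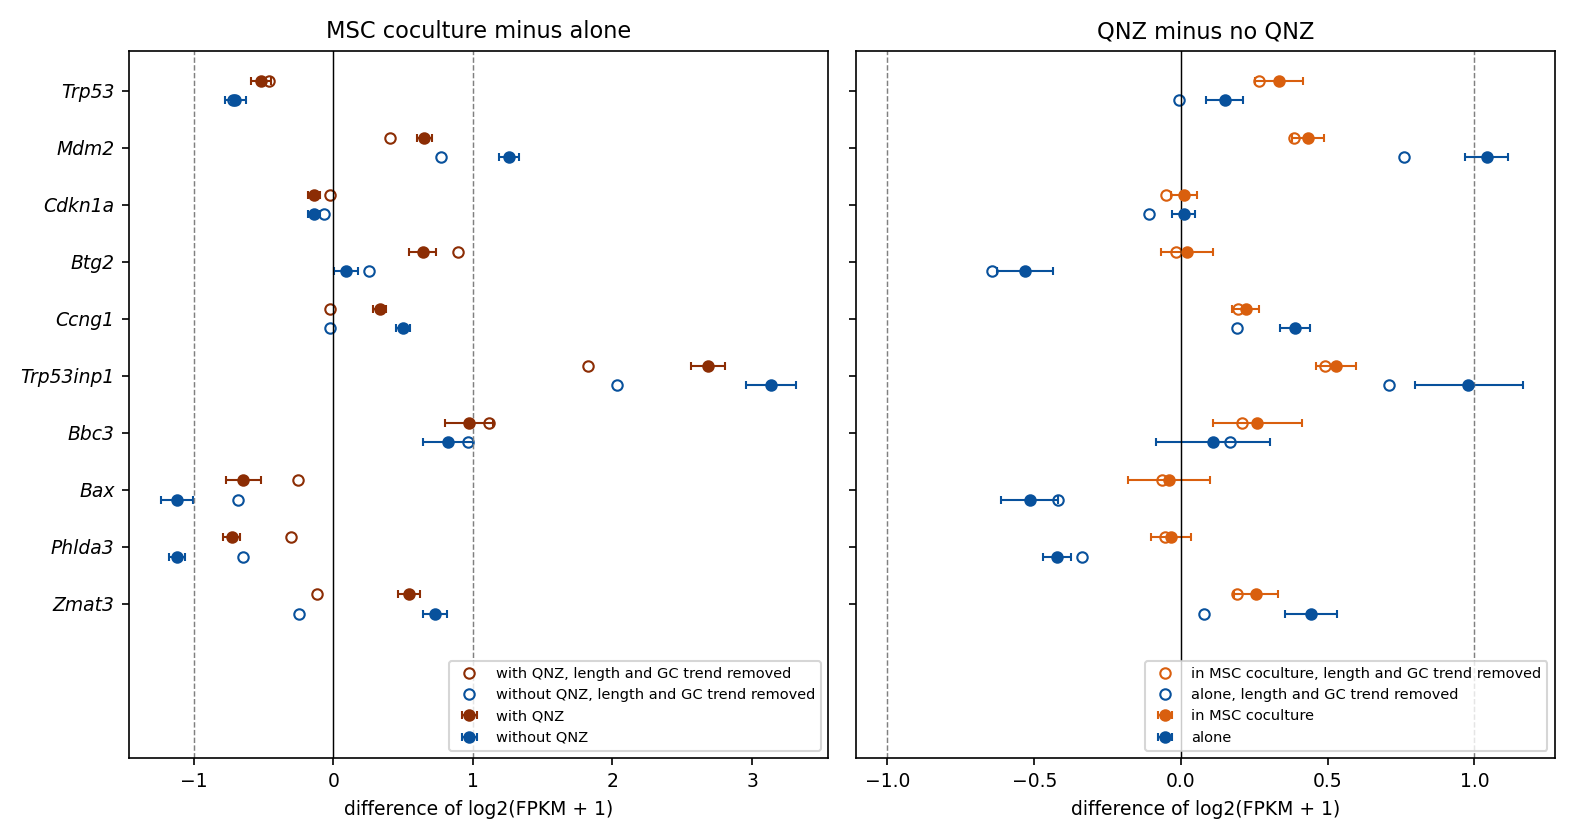
Difference of log2(FPKM + 1) for the 10 genes (x axis), for coculture minus culture alone (left) and QNZ minus no QNZ (right). Filled points carry 95% counting intervals, open points are corrected for the trend of all genes with length and GC content, and the broken lines mark a difference of 1. Trp53inp1 lies beyond 1 in both coculture comparisons with and without the trend, whereas Mdm2, Bax and Phlda3 without QNZ move inside 1 when it is removed.

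The difference made by coculture was of unequal size with and without QNZ for several members. The ratio of the CPM ratios, with QNZ over without QNZ, was 0.621 (0.533 to 0.724) for Trp53inp1 and 0.646 (0.607 to 0.689) for Mdm2, the members counted as higher without QNZ. It was 1.40 (1.24 to 1.57) for Bax and 1.31 (1.24 to 1.39) for Phlda3, the members counted as lower without QNZ. These 4 were singled out by their differences without QNZ, which also enter the ratio. In 76.3% of the 11335 genes the coculture difference without QNZ and its shift with QNZ, which use the same libraries, were opposite in sign. Across all genes the difference made by coculture was shifted by a median of -0.15 with QNZ. For Cdkn1a the ratio was 1.001 (0.961 to 1.04) and for Bbc3 1.11 (0.931 to 1.33). These intervals cover counting error, and a spread between cultures could not be added to them.

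A shared order of the libraries was noticed after the members' values had been seen. In 5 of the 10 (Mdm2, Ccng1, Trp53inp1, Bbc3 and Zmat3) the level was highest in fibroblasts cocultured with QNZ, then in cocultured fibroblasts, then in fibroblasts cultured alone with QNZ, and lowest in fibroblasts cultured alone. Over the 11335 genes, 26.2% had this order. Bax and Phlda3 had exactly the reverse order, which 7.90% of genes had. The steps between the lower 2 libraries of Bbc3 and between the cocultures of Bax and Phlda3 were within counting error. The share of mitochondrial reads followed the first of these orders, and its part in the members' levels was not tested. With median-of-ratios scaling in place of the library total, 2 members had the first order (Trp53inp1 and Zmat3) and 3 the reverse (Cdkn1a, Bax and Phlda3), against 16.3% and 15.3% of all genes.

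Gene length and base composition moved with these differences. The members range from 1559 bases (Phlda3) and 1576 bases (Bax) to 11435 bases (Zmat3). Across the 10 members, Spearman's rho of the log2 difference with length was 0.64 for coculture against culture alone and 0.50 with QNZ in both cultures, and over all genes it was 0.51 and 0.49. With GC content it was -0.60 and -0.45 across the members. For QNZ against no QNZ, rho with length across the members was 0.79 in fibroblasts cultured alone and 0.72 in coculture. Over all genes it was 0.33 and 0.08. The members of one library share its depth and composition, and rho is given as a description of 10 points. Bax and Phlda3 lie in the group of shortest genes, whose median difference was -0.74, and were at -0.38 relative to it. Mdm2 stood 0.80 above the median of its length group, Bbc3 1.14 above and Trp53inp1 2.46 above, whereas Trp53 was at -0.95 relative to its own. After correction for that trend, Trp53inp1 was the only member counted without QNZ, against 10.0% of all genes higher and 11.0% lower. The values then were 0.77 for Mdm2, 0.97 for Bbc3, -0.72 for Trp53, -0.69 for Bax and -0.65 for Phlda3. With QNZ in both cultures, Trp53inp1 (1.83) and Bbc3 (1.11) were counted, against 6.86% of all genes higher and 6.7% lower.

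**Figure D3:**
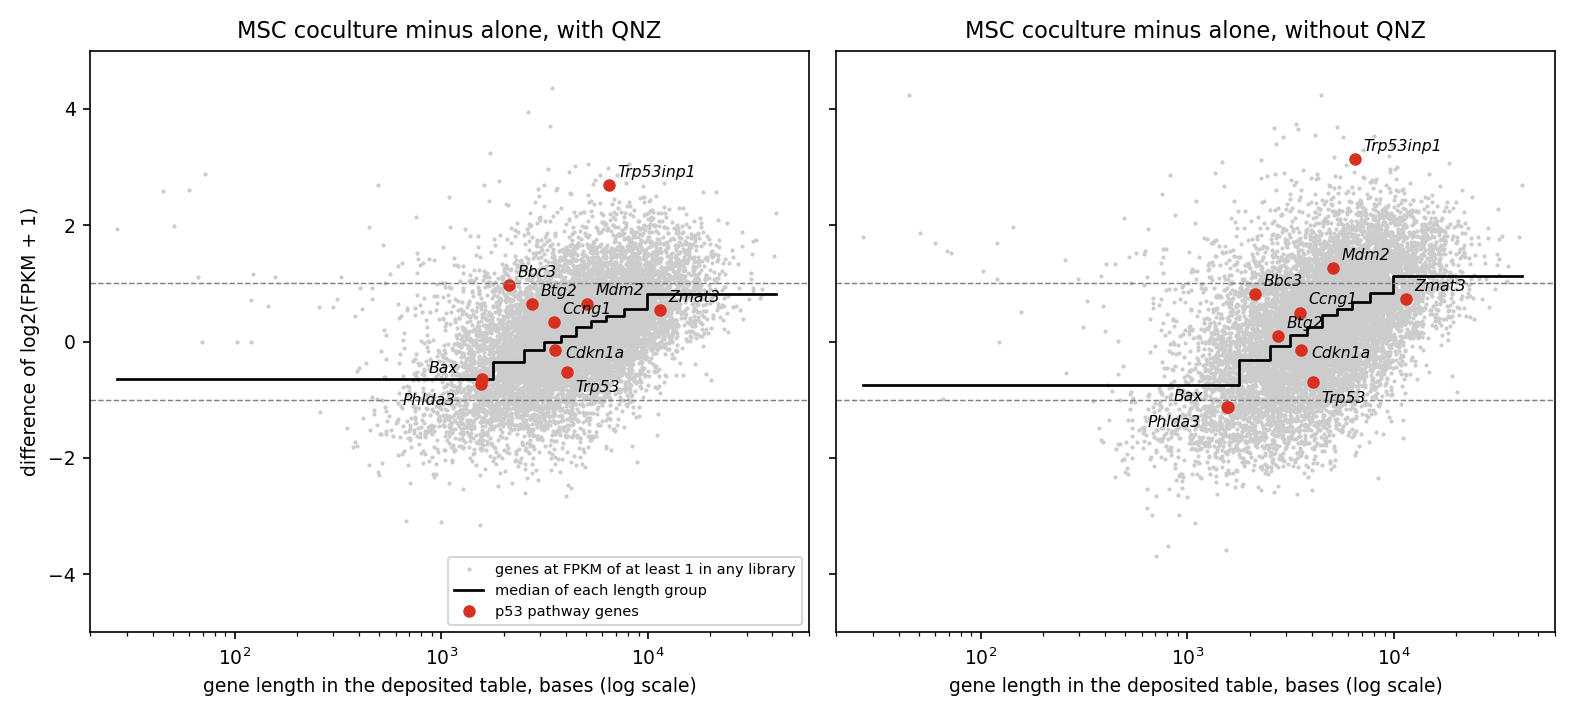
Difference of log2(FPKM + 1) of coculture minus culture alone (y axis) against gene length on a log scale (x axis), with QNZ (left) and without (right). Grey points are the 11335 genes, the black line is the median of each of 10 groups by length, and red points are the 10 members. Trp53inp1 lies far above the line in both panels, whereas Trp53 and Zmat3 lie below it.

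The wider pathway was read from lists of p53 regulators, other p53 targets, relatives of the members and cell cycle genes. Of 23 regulators, 11 were higher and 2 lower in coculture without QNZ, with a median of 0.70 against 0.35 for all genes, of which 24.0% were higher and 11.0% lower. The counts were 7 and 3 and the median was 0.37 with QNZ in both cultures, against 14.0% and 8.70% of all genes. After correction for the length and GC trend the counts were 3 and 3 and the median was 0.06. In that setting 10.0% of all genes were higher and 11.0% lower. Mdm4, the relative of Mdm2 that blocks p53's activation domain, showed the largest difference. It had 14.6 and 14.9 FPKM in cocultured fibroblasts with and without QNZ, against 2.19 and 1.17 FPKM in fibroblasts cultured alone with and without QNZ. Its log2 difference was 2.87 without QNZ and, with the trend removed, 1.57. Next came the acetyltransferase Ep300, which is recruited by p53 (1.98), and the ubiquitin ligase Huwe1 (1.78). With the trend removed, Ep300 was at 1.08 and Huwe1 at 0.53. Mdm4, Ep300 and Huwe1 are all long genes, at 14798, 14273 and 23507 bases. The ribosomal proteins Rpl11 and Rpl5, which bind and inhibit Mdm2 when free of the ribosome, were lower, at -1.85 and -1.40.

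Other p53 targets differed in both directions. For their counts, the shares of all genes higher and lower in coculture were 24.0% and 11.0% without QNZ. These shares were 14.0% and 8.70% with QNZ in both cultures, and 10.0% and 11.0% without QNZ after correction for the trend. Of 9 measured arrest genes, 1 was higher and 0 were lower in coculture without QNZ, with a median of -0.04. With QNZ in both cultures the counts were 0 and 1 with a median of -0.47, and after correction for the trend without QNZ they were 1 and 1. The one higher was Gadd45a, a stress sensor, with 22.4 and 17.2 FPKM in cocultured fibroblasts with and without QNZ, against 11.7 and 2.83 FPKM in fibroblasts cultured alone with and without QNZ. As with Mdm2, its lowest library was the fibroblasts cultured alone without QNZ, and QNZ against no QNZ gave 1.73 there. Of 12 apoptosis genes, 4 were counted as higher and 1 as lower, and their median was 0.80. This was 1 and 1 with a median of 0.02 with QNZ in both cultures, and after correction for the trend without QNZ it was 2 and 1 with a median of 0.34. Apaf1, the scaffold of the apoptosome, and the death receptor Fas were each at 1.19. Pmaip1, the BH3-only protein NOXA, was at 1.06 (-0.10 with QNZ in both cultures), and Siva1 was at -2.14. With the trend removed, Apaf1 was at 0.34, Fas at 1.33, Pmaip1 at 0.85 and Siva1 at -1.79. QNZ in fibroblasts cultured alone gave 1.20 for Pmaip1 and 1.09 for Perp, a membrane protein of p53-driven apoptosis.

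Of 17 repair and metabolism targets, 5 were counted as higher and 1 as lower in coculture without QNZ, and the median was 0.76. This is near the 24.0% and 11.0% of all genes. There were 3 and 2 with a median of 0.35 with QNZ in both cultures, and after correction for the trend without QNZ 3 and 0 with a median of 0.48. Polk, a translesion DNA polymerase, stood at 1.90, Lpin1, a phosphatidate phosphatase, at 1.83 and the autophagy gene Dram1 at 1.27. The antioxidant enzyme Gpx1 was at -1.71. Of 15 measured targets with other roles, 4 were counted as higher and 1 as lower, and the median was 0.41, again near the shares of all genes. The counts were 1 and 0 with QNZ in both cultures, and after correction for the trend without QNZ 2 and 0 with a median of 0.22. Thbs1, which encodes the matrix protein thrombospondin 1, led them at 1.87, followed by the thiamine transporter Slc19a2 at 1.33 and the phosphatase Ptpn14 at 1.22. Dcxr, a sugar reductase, was at -1.65. In the QNZ comparison of fibroblasts cultured alone, Gdf15, a secreted stress cytokine, was at 2.02, and in coculture no gene of these target lists or of the regulators was counted.

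Relatives of the members were measured where they passed 1 FPKM in any library. Of 14 such genes, 6 were counted as higher and 1 as lower in coculture without QNZ, and the median was 0.71. The counts were 3 and 1 with QNZ in both cultures, and 2 and 1 with a median of 0.48 after correction for the trend without QNZ. Over all genes the shares without QNZ were 24.0% and 11.0% before that correction and 10.0% and 11.0% after it. They were 14.0% and 8.70% with QNZ in both cultures. Besides Mdm4, these included Ccng2 (1.62), the relative of Ccng1, and Cdkn1b (1.53), which encodes the Cdkn1a relative p27. Bok, a Bax relative, was at -1.86. The p53 relatives Trp63 and Trp73 had at most 2 reads in any library. In the BCL-2 family, 3 of 11 measured genes were higher and 2 were lower, with a median of 0.77. After correction for the trend the counts were 0 and 2 and the median was 0.14. With QNZ in both cultures 1 was higher and 2 were lower, against 14.0% and 8.70% of all genes, with a median of 0.13. The BH3-only genes differed among themselves, with Bcl2l11 at 1.47, Bmf at 1.10 and Bad at -1.69.

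Genes that p53 represses through p21 and the DREAM complex, most of which serve the cell cycle, were lower in coculture. Of 18 genes, 0 were higher and 11 were lower without QNZ, with a median of -1.43. Over all genes, 24.0% were higher and 11.0% lower in that comparison. With QNZ in both cultures 14 of 18 were lower, against 8.70% of all genes, with a median of -2.06. The replication factor Mcm5 was at -2.56, the mitotic kinase Plk1 at -2.50 and Cdk1 at -2.18 without QNZ. Cdk1 had 3.45 and 4.29 FPKM in cocultured fibroblasts with and without QNZ, against 18.7 and 23.0 FPKM in fibroblasts cultured alone with and without QNZ. After correction for the trend, 13 of 18 were lower without QNZ, against 11.0% of all genes, with a median of -1.46. These genes also follow proliferation in general, and a p53-dependent part was not tested. Cdkn1a itself, the first gene of that route, had a CPM ratio of 0.908 in the same comparison. Its log2 difference was -0.67 with median-of-ratios scaling and 0.38 by TPM. The p21 protein was not measured, and the part of Cdkn1a in the levels of these genes was not tested.

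**Figure D4:**
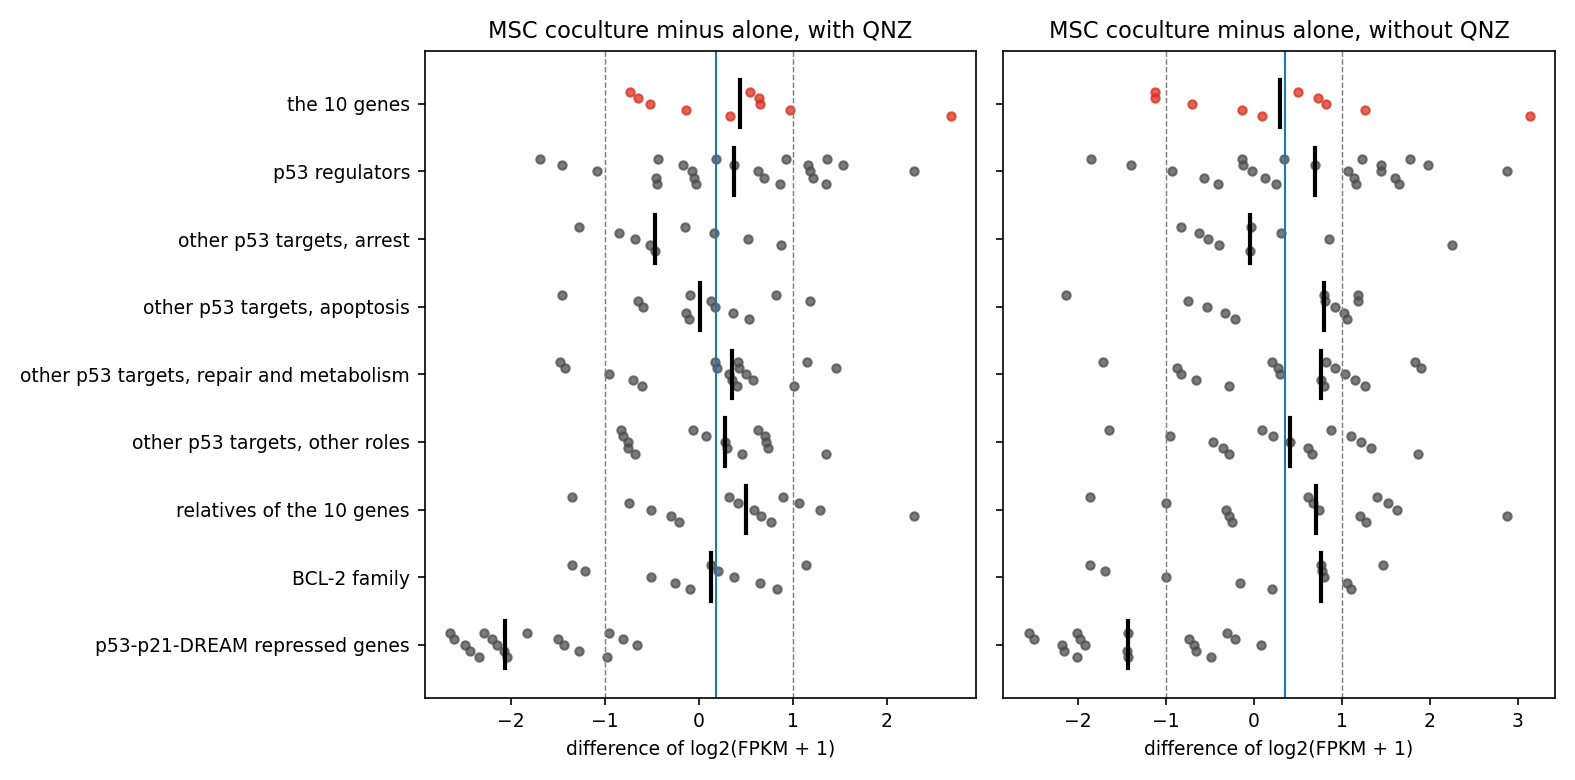
Difference of log2(FPKM + 1) of coculture minus culture alone (x axis) for the 10 genes (red) and the lists of the wider pathway (grey, 1 point per gene measured), with QNZ (left) and without (right). Black bars are list medians, the blue line is the median of all 11335 genes and the broken lines mark a difference of 1. The genes repressed through p21 and DREAM lie to the left in both panels, whereas the 10 members spread over both sides.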

How the data were processed

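Per the labels, the authors mapped reads of a stranded library kit to mm10 with STAR 2.5.4b and named Cuffnorm of Cufflinks 2.2.1. The read counter, annotation version and strand setting are not given in the sources used here. The authors deposited 1 table with unnormalized read counts and FPKM for 21862 gene IDs. The deposited FPKM equalled count divided by length and library total for all gene IDs within a relative tolerance of 1e-06. Values of 23 symbols with more than 1 ID were summed. The members and gene lists were chosen with earlier results of these data known. Differences were taken as log2(FPKM + 1), over 11335 genes with at least 1 FPKM in any library, and counted at 1 or more in size. CPM ratios carry exact binomial intervals, reads exact Poisson intervals and ratios of ratios log-normal intervals (95%). With 1 library per condition no p-value or SD was computed, and no additive fit, which would have 1 residual degree of freedom, was made. The trend with length and GC content (GENCODE M21) was removed by lowess with a span of 0.3 in 3 rounds. All 10 members were named, and from each list up to 3 of the largest counted differences in each direction for coculture and up to 2 for QNZ. The scripts were tested on simulated data. Scripts ran under Python 3.11.15 with statsmodels 0.14.6, scipy 1.17.1, pandas 2.3.3 and numpy 2.4.6. Alternatives were another pseudocount, other filters, median-of-ratios scaling, TPM, the trend removed, a ratio rule and the highest ID per symbol.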

Additional observations from a re-analysis of the deposited data

Results flagged for a closer look

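Btg2 had QNZ differences of unlike sign in the 2 kinds of culture, a sign that did not hold in coculture. QNZ against no QNZ gave 0.02 on the log2 scale in coculture (interval of the counting error from -0.07 to 0.11) and -0.53 in fibroblasts cultured alone (-0.63 to -0.44), which leaves 0.55 between them. The value in coculture was within counting error of 0 and was negative with median-of-ratios scaling (-0.011) and after correction for gene length and GC content (-0.019), and the difference between the cultures was not tested against a spread between cultures, since each condition had 1 library. Of all 11335 genes, 33.8% had QNZ differences of opposite sign in the 2 kinds of culture, and Btg2 was the 1 member that did on the scale reported.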

How the results depend on the processing

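The main scale limits how the members are read, because the median of all genes moves with it. For coculture against culture alone that median was 0.35 by FPKM, -0.07 with median-of-ratios scaling (13% of genes higher and 20.7% lower) and 0.90 by TPM (46.5% and 5.70%). In this comparison, median-of-ratios scaling left 1 member higher with a members' median of -0.23. TPM gave 5 higher and 0 lower with a median of 0.81. Removal of the trend gave 1 higher and 0 lower with a median of -0.043, against 10.0% and 11.0% of all genes. With QNZ in both cultures, the count of members higher was 2 with a pseudocount of 0.1, with the trend removed and by the ratio rule (at least 2 or at most 0.5), and 4 by TPM, against 22.5% of all genes with that pseudocount, 6.86% with the trend removed and 31.9% by TPM. The median there was 0.18 with median-of-ratios scaling, 0.83 by TPM and -0.023 with the trend removed. For QNZ in fibroblasts cultured alone, the count of members higher was 2 with a pseudocount of 0.1, by TPM and by the ratio rule, and 0 with median-of-ratios scaling and with the trend removed, against 5.42% of all genes with that pseudocount and 5.06% by TPM. The median there was -0.15 with median-of-ratios scaling. For QNZ in coculture, no count or median of the members moved beyond these limits. Trp53inp1 was counted as higher in both coculture comparisons under all 7 alternatives run per gene. Mdm2 fell short of 1 in coculture without QNZ with median-of-ratios scaling (0.74) and with the trend removed. Bax and Phlda3 fell short by TPM (-0.62 and -0.60) and with the trend removed, and Trp53 reached -1.22 with median-of-ratios scaling. Cdkn1a, Btg2, Ccng1 and Zmat3 changed sign in that comparison between scales (Cdkn1a between -0.67 and 0.38). The labels give no replicate numbers, so no replicate block was fitted, and an additive fit over the 4 libraries was not made. With 1 library per condition none could be left out of a comparison.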
